A study of Mus musculus with 93 samples.

Results

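Pak3, Dtna, Serpinb1a, Smoc1, Pmm1, Olfr810, Ate1 and Zfat are 8 genes whose transcript levels differed between Esr2 knockout and wild type mouse granulosa cells at more than 1 age. They were picked for that difference from the 24047 genes with a row in any of the 6 count tables. In the fits used here, 154 of the 11593 genes tested at all 3 ages passed the test at 2 or 3 of them, and these 8 are among the 154. All 8 therefore differ in granulosa cells by choice, and their granulosa values are given as a description, with no test. The genes were also grouped as having no established role in the follicle, which expression tables cannot check.

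Granulosa cells, the somatic cells that surround and feed the oocyte, and oocytes came from ovaries of wild type and Esr2 knockout mice. The animals were 4 weeks, 7 weeks or 6 months old. Each RNA sample was turned into cDNA by Smart-seq2, a full-length method for very small inputs, and sequenced. There were 93 libraries in 12 groups. Of granulosa cells there were 7 wild type with 7 knockout libraries at 4 weeks, 5 with 5 at 7 weeks, and 12 with 6 at 6 months. Of oocytes there were 12 with 7, then 5 with 12, then 11 with 4. The labels name only genotype, cell type and age: no allele design, strain, animal, litter, batch or number of cells per library is given. The p-values below therefore measure the spread between libraries, which may be technical. In the 7 week knockout oocyte group, the name of 1 of the 12 libraries combines the numbers 4 and 5, although a library numbered 5 is also present. No library of this group is numbered 4 alone, so this library may be sample 4. It may also share a sample with library 5, so the 12 may not be separate samples.

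Esr2 encodes estrogen receptor beta, the estrogen-activated transcription factor that predominates over estrogen receptor alpha in granulosa cells. It binds DNA at palindromic estrogen response elements, or is held at other sites by partner proteins, and females without it are subfertile. The 8 genes fall into unrelated functional classes. Pak3 is a protein kinase switched on by the small GTPases Rac1 and Cdc42. Dtna encodes alpha-dystrobrevin, a scaffold of the dystrophin complex that ties the cytoskeleton to the matrix outside the cell. Serpinb1a is an intracellular inhibitor of neutrophil-type serine proteases, and Smoc1 is a secreted calcium-binding protein of the SPARC family that modulates BMP signalling. Pmm1, a phosphomannomutase, interconverts mannose phosphates on the route to the sugar donor GDP-mannose. Olfr810 is an olfactory receptor gene. Ate1 transfers arginine onto protein ends, which marks them for the N-degron pathway of protein breakdown. Zfat is a zinc finger and AT-hook protein that binds DNA.

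In the GRCm38 assembly (mm10, the build in the submitters' processing notes), GENCODE places 7 of the genes as follows, all as protein-coding. Pak3 lies at chrX:143518591-143797796 on the plus strand. Smoc1 lies at chr12:81026808-81186414 on the plus strand, which is 4.85 Mb from Esr2 at chr12:76120419-76177259. The other five lie on minus strands: Ate1 at chr7:130391493-130520369, Olfr810 at chr10:129787289-129794917, Serpinb1a at chr13:32842092-32851185, Zfat at chr15:68083764-68258856 and Pmm1 at chr15:81951108-81960930. The position of Dtna is not given here. Exons of Dtna share 0.5% of their bases with Gm47898 on the opposite strand, and the exons of the other genes overlap no other gene. Whether reads were counted by strand is not given in the sources used here.

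RefSeq promoter windows for GRCm38.p6, of 250 bases before a transcript start, were at hand for 3 of the 8 genes (Pmm1, Ate1 and Pak3). Both strands were searched for the palindromic estrogen response element, a single arm of it (AGGTCA), the AP-1 site TGANTCA, the SF-1 site CAAGGTCA, which contains that arm, and the GC box GGGCGG. The windows of Pmm1 and of Ate1 are shown because these genes lie on opposite sides in the knockout and both carry GC boxes. Capitals mark the GC boxes on either strand. The Pmm1 window is at chr15:81960931-81961180 and the Ate1 window at chr7:130519581-130519830, both read 5′ to 3′ along the minus strand.
Pmm1: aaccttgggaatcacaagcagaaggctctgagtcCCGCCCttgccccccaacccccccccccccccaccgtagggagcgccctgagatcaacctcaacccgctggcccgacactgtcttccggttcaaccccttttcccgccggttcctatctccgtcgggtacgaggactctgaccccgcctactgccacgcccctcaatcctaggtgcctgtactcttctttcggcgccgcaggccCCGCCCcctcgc
Ate1: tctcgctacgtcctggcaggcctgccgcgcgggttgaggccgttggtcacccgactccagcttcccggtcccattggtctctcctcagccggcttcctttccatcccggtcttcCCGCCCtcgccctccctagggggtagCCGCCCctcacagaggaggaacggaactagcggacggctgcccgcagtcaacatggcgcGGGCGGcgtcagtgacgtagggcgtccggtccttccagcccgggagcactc
Pmm1 held 2 GC boxes and this Ate1 window 3, a motif present in 32.7% of all 32851 mouse windows of that length. A second Ate1 window and the 3 windows of Pak3 held none of the 5 motifs. Neither the full estrogen response element nor the longer arm AGGTCA was found in any of the 6 windows, against 0.064% and 14.02% of all windows. AP-1 and SF-1 letters, present in 6.75% and 1.33% of all windows, were also not found. This says only that these letters are not in these windows. The shorter arm GGTCA of the full element was not searched alone, and on one strand or the other it occurs in both printed windows.

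Total estimated counts ran from 702726 to 6469420 in granulosa and from 1814960 to 7751950 in oocyte libraries. Levels below are CPM, counts scaled to the library total, and values of single libraries stand in the order of their replicate numbers. Esr2 checked the genotype labels: the 24 wild type granulosa libraries held 5.69 to 39.6 CPM and the 18 knockout libraries no count, while in oocytes 28 wild type libraries held 39.3 to 112 CPM and the highest of 23 knockout libraries 0.598. Summed granulosa markers ran from 1502 to 6409 CPM in granulosa libraries, and summed oocyte markers from 10271 to 38221 CPM in oocyte libraries. Of 10 granulosa markers, 5 (Fshr, Foxl2, Inhbb, Amh and Kctd14) had no count in any oocyte library. The granulosa marker sum itself moved with genotype: knockout libraries had medians of 5908, 3574 and 3045 CPM in order of age, against 3003, 2519 and 2158 CPM for wild type. Granulosa libraries also held markers of other cells, some of which moved with genotype. The 12 immune markers summed to 205 to 510.5 CPM in 4 week knockout and 377 to 1984 in wild type libraries. At 7 weeks and 6 months the medians of this sum were 374 and 564 CPM in knockout and 1079 and 969 in wild type libraries. At 7 weeks the 8 surface epithelium markers summed to 139 to 447 CPM in knockout and 586 to 1855 in wild type libraries. Ranges of this sum overlapped at the other ages. Its knockout median was lower at 4 weeks (317 against 473 CPM) and higher at 6 months (863 against 648 CPM). The part of these other cells in the granulosa differences below was not tested. In bulk libraries, fewer cells of a type and less RNA per cell cannot be told apart.

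At 4 weeks all 8 genes were past the threshold in granulosa cells, where 2.33% of the 12161 genes tested were. At 7 weeks 5 of 8 were, against 0.8% of 12002 genes, and at 6 months all 8, against 12.6% of 12505 genes. Since these contrasts chose the genes, nothing is read from those counts. Pak3, Dtna, Serpinb1a, Smoc1 and Olfr810 were past it at all 3 ages, as were 24 genes in all. The members nearest the threshold were Serpinb1a at 7 weeks, just inside with an adjusted p = 0.0292 in the edgeR quasi-likelihood test, and Zfat at 7 weeks, just outside with an adjusted p = 0.0729. Pmm1, Ate1 and Zfat were the genes outside it at 7 weeks. Without knockout replicate 5, 3 genes (Pak3, Dtna and Smoc1) were past it at that age.

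**Figure D1:**
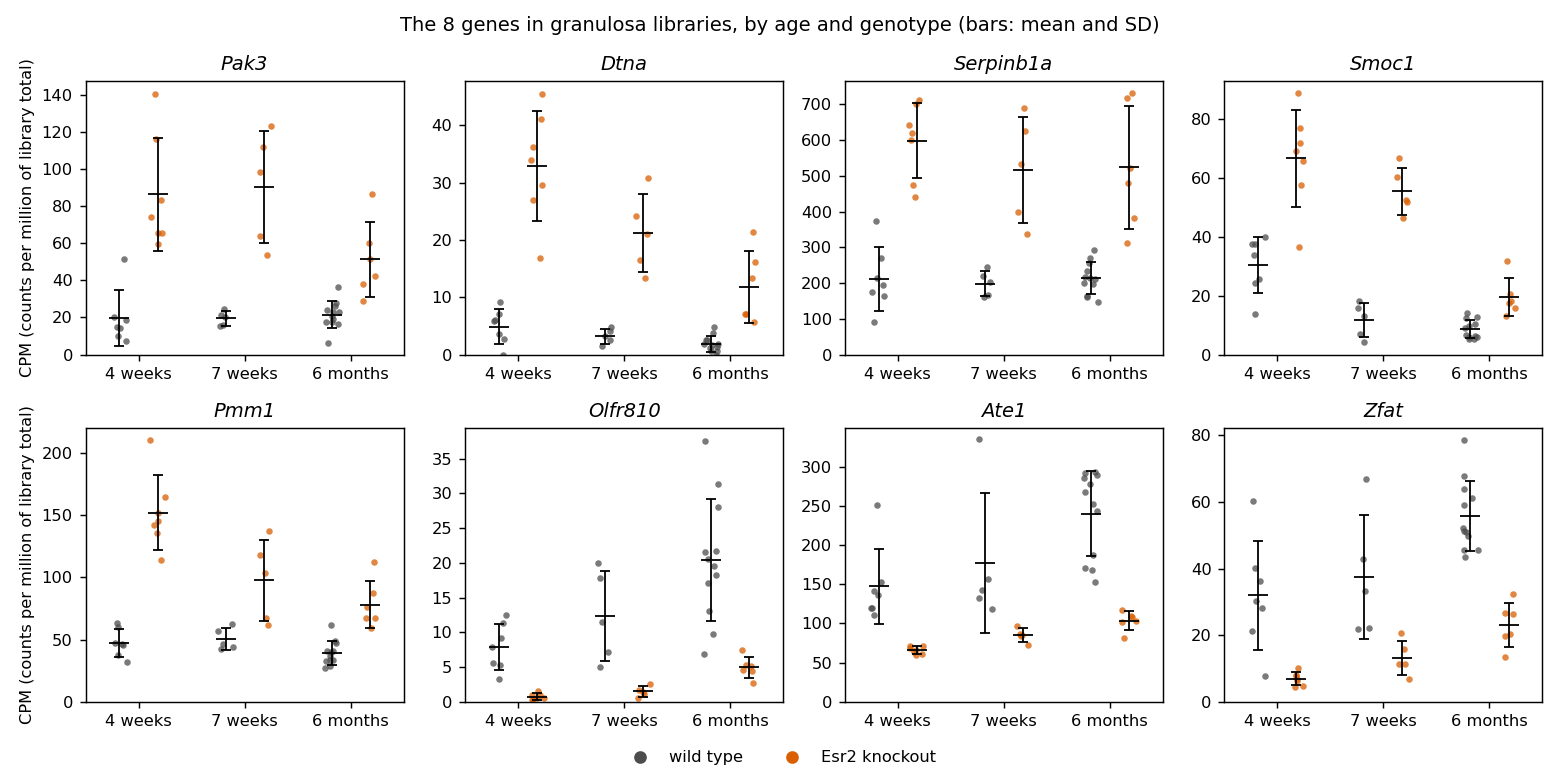
CPM of the 8 genes (vertical axes, each from 0) in the 42 granulosa libraries, by age (horizontal axes) and genotype; points are libraries and bars the mean and SD. Knockout points lie above wild type for Pak3, Dtna, Serpinb1a, Smoc1 and Pmm1 and below for Olfr810, Ate1 and Zfat, with overlaps that differ by gene and age, and the genes lower in the knockout have higher means at later ages in both genotypes.

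Pak3 is best known as an X-linked kinase of neurons, where it shapes synapses. In 4 week wild type granulosa libraries its lowest, median and highest levels were 7.07, 14.8 and 51.7 CPM, against 59.6, 73.9 and 140.5 CPM in knockout libraries. At 7 weeks the 5 wild type libraries held 21.3, 15.4, 24.6, 20.1 and 15.9 CPM, and the 5 knockout libraries 112, 123, 53.6, 63.7 and 98.1 CPM. At 6 months the levels were 6.35, 21.9 and 36.5 CPM in wild type and 29.1, 47.0 and 86.4 CPM in knockout libraries. Every knockout library was above every wild type library at 4 and 7 weeks, and the ranges overlapped at 6 months. Wild type means stayed between 19.5 and 21.6 CPM over the 3 ages. As a log2 ratio of knockout over wild type, the fold change was 2.12 ± 0.35 (SE) at 4 weeks, 2.13 ± 0.29 at 7 weeks and 1.36 ± 0.23 at 6 months. Wild type replicate 1 at 4 weeks held 51.7 CPM where the next held 20.4, and without it the 4 week value was 2.52 ± 0.30.

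Dtna was the gene of the higher group with the lowest wild type counts: 0 to 33 reads per library at 4 weeks, 1 to 21 at 7 weeks and 0 to 19 at 6 months. At 4 weeks its lowest, median and highest levels were 0, 5.825 and 9.18 CPM in wild type and 16.8, 34.1 and 45.5 CPM in knockout libraries. Wild type libraries of 7 weeks held 1.42, 4.75, 3.27, 2.51 and 4.07 CPM, and knockout libraries 30.8, 16.6, 13.4, 21.01 and 24.2 CPM. Libraries of 6 months held 0, 1.70 and 4.84 CPM against 5.76, 10.3 and 21.5 CPM. No wild type library reached the lowest knockout library of its age. Both genotypes had their highest mean at 4 weeks and their lowest at 6 months, 4.90 and 1.90 CPM in wild type and 32.9 and 11.8 CPM in knockout libraries. The log2 fold changes were 2.76 ± 0.44, 2.50 ± 0.38 and 2.79 ± 0.43 (SE) in order of age, so the ratio moved by less than its error while the level was lower at later ages.

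Serpinb1a is known for shielding cells from elastase, cathepsin G and proteinase 3. Its lowest, median and highest levels at 4 weeks were 91.2, 195 and 374 CPM in wild type and 441, 620.4 and 713 CPM in knockout libraries. At 7 weeks wild type libraries held 202, 245, 160.4, 168 and 219 CPM, and knockout libraries 690.3, 399, 337, 533 and 624.7 CPM. Libraries of 6 months held 148, 213 and 292 CPM against 312, 500.3 and 733 CPM. Each age separated the genotypes without overlap. The log2 fold changes were 1.40 ± 0.27, 1.29 ± 0.25 and 1.42 ± 0.19 (SE), and the wild type means, 212, 199 and 214 CPM, were as steady as the ratio. Its closest relatives Serpinb1c and Serpinb1b align over 72.6% and 68.6% of its transcript at 87.6% and 89.0% identity. In granulosa tables Serpinb1c has no row, and Serpinb1b reached 3.36 CPM at most. How the counting divided reads between the copies is not given in the sources used here, so the Serpinb1a level is uncertain to that extent.

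Smoc1 is known from eye and limb development, where it acts around BMP ligands. At 4 weeks its lowest, median and highest levels were 13.8, 33.6 and 39.7 CPM in wild type and 36.6, 69.1 and 88.6 CPM in knockout libraries. The 7 week wild type libraries held 4.27, 7.01, 13.2, 18.1 and 15.9 CPM, and the knockout libraries 46.2, 60.2, 66.6, 52.4 and 51.8 CPM. At 6 months the figures were 5.15, 7.93 and 14.2 CPM against 13.1, 17.8 and 31.7 CPM. Only the 7 week libraries separated by genotype, and there the log2 fold change was 2.11 ± 0.32 (SE), against 1.10 ± 0.24 at 4 weeks and 1.27 ± 0.23 at 6 months. The mean was lower at each later age in both genotypes, from 30.3 over 11.7 to 8.67 CPM in wild type and from 66.6 over 55.4 to 19.4 CPM in knockout libraries. At 7 weeks the knockout mean was thus still near its 4 week value when the wild type mean was not. Whether the ratio differs between ages was not tested, since these libraries chose the gene.

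Pmm1 held 31.8, 46.4 and 63.0 CPM (lowest, median, highest) in 4 week wild type and 114, 145 and 211 CPM in knockout granulosa libraries. At 7 weeks wild type libraries held 44.1, 56.5, 46.2, 62.7 and 42.6 CPM, and knockout libraries 61.6, 67.2, 137, 103 and 118 CPM. In the oldest libraries the figures were 26.8, 38.4 and 61.7 CPM against 59.2, 71.7 and 112 CPM. The genotypes were apart at 4 weeks and overlapped by single libraries later. Log2 fold changes were 1.61 ± 0.22, 0.87 ± 0.27 and 1.10 ± 0.16 (SE). Knockout means went from 152 over 97.5 to 78.1 CPM with age, while wild type means stayed between 39.4 and 50.5 CPM. A transcript annotated as AC104103.1 aligns over 57.8% of the Pmm1 transcript at 77.4% identity, and the paralog Pmm2 over 39.5% at 69.2%.

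Olfr810 was low in every granulosa library, with 12 to 32 reads in 4 week wild type and 1 to 6 in knockout libraries. Its lowest, median and highest levels there were 3.25, 7.88 and 12.4 CPM against 0.250, 0.549 and 1.54 CPM. At 7 weeks wild type libraries held 19.9, 11.5, 5.03, 7.215 and 17.8 CPM, and knockout libraries 1.40, 2.62, 1.67, 1.10 and 0.569 CPM. At 6 months the figures were 6.86, 20.1 and 37.5 CPM against 2.69, 4.87 and 7.42 CPM. Knockout libraries lay below all wild type libraries at 4 and 7 weeks. The ranges met at 6 months, when 17 to 165 wild type and 4 to 23 knockout reads were counted per library. The log2 fold changes were -3.37 ± 0.50, -3.21 ± 0.56 and -1.88 ± 0.31 (SE). Most of its family was too low to test: of 51, 23 and 14 olfactory receptor genes with a row at the 3 ages, 4, 2 and 3 could be tested, and Olfr810 was the one past the threshold at each age. Its nearest relatives Olfr816 and Olfr822 align over 23.8% and 20.9% of the transcript, at 93.4% and 93.0% identity, and have no row in any table.

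Ate1 held 111, 136 and 252 CPM (lowest, median, highest) in 4 week wild type and 59.3, 65.9 and 71.6 CPM in knockout granulosa libraries. At 7 weeks wild type libraries held 336, 157, 143, 119 and 132 CPM, and knockout libraries 85.4, 96.9, 86.7, 73.1 and 84.5 CPM. The 6 month figures were 153, 260.3 and 294 CPM against 81.4, 105 and 118 CPM. The knockout libraries were below every wild type library of their age at all 3 ages. The knockout values were also tightly grouped, with an SD of 4.90 CPM at 4 weeks against 48.2 in wild type. Log2 fold changes were -1.21 ± 0.20, -1.12 ± 0.29 and -1.07 ± 0.15 (SE). The 7 week value rested in part on wild type replicate 1, the shallowest granulosa library with 702726 counts, and was -0.79 ± 0.22 without it.

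Zfat has been studied mainly in lymphocytes and blood cells. Its lowest, median and highest levels at 4 weeks were 7.83, 30.2 and 60.2 CPM in wild type and 4.41, 6.75 and 10.2 CPM in knockout libraries. The 7 week wild type libraries held 66.9, 42.7, 33.2, 21.96 and 22.1 CPM, and the knockout libraries 11.2, 15.7, 20.5, 6.90 and 11.4 CPM. At 6 months the figures were 43.5, 51.7 and 78.5 CPM against 13.3, 23.4 and 32.3 CPM. A single low wild type library overlapped the knockout range at 4 weeks, and none did later. Log2 fold changes were -2.30 ± 0.36, -1.58 ± 0.39 and -1.12 ± 0.19 (SE). The immune marker sum had a lower median in knockout libraries too, at 317, 374 and 564 CPM in order of age. Wild type medians were 749, 1079 and 969 CPM, and the ranges overlapped at each age. The part of such cells in the Zfat levels was not tested.

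Genotype ranges were apart for 6 of 8 genes at 4 weeks, 7 at 7 weeks and 4 at 6 months, against 1.48%, 4.97% and 1.37% of all genes tested. These shares too follow from the choice of genes. The 3 genes lower in the knockout shared an order by age that the rule did not ask for. Olfr810 means went from 7.86 over 12.3 to 20.4 CPM in wild type and from 0.738 over 1.47 to 4.93 CPM in knockout libraries. Ate1 means went from 148 over 177 to 240.3 CPM and from 65.8 over 85.3 to 104 CPM. Zfat means went from 32.0 over 37.4 to 55.8 CPM and from 6.87 over 13.1 to 23.1 CPM. For all 3, the ranges of neighbouring ages overlapped within each genotype, apart from Olfr810 between 7 weeks and 6 months and Ate1 between 4 and 7 weeks in knockout libraries. Each age is a table of its own, so age and table cannot be told apart.

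Likeness of pattern was measured as Pearson's r of log2 CPM (TMM-scaled, prior count 2) over the 42 granulosa libraries, against 14307 genes. These libraries share genotype, age and table, so r is a description. The gene most like Olfr810 was Ate1 (r = 0.94), and the gene most like Ate1 was Olfr810. Both were chosen on these libraries. They lie on chromosomes 10 and 7, and a search of the same strand found 0 alignments between their transcripts. The opposite strand was not searched. After the mean of each of the 6 groups was removed, r between Olfr810 and Ate1 was 0.59. Zfat was also among the 3 genes nearest to Ate1 (r = 0.86, and 0.21 after group means). The next genes were Nts and Alcam for Olfr810 (0.86 and 0.85), Alcam for Ate1 (0.87), and Mall and Aldh1a3 for Zfat (0.88 and 0.87).

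**Figure D2:**
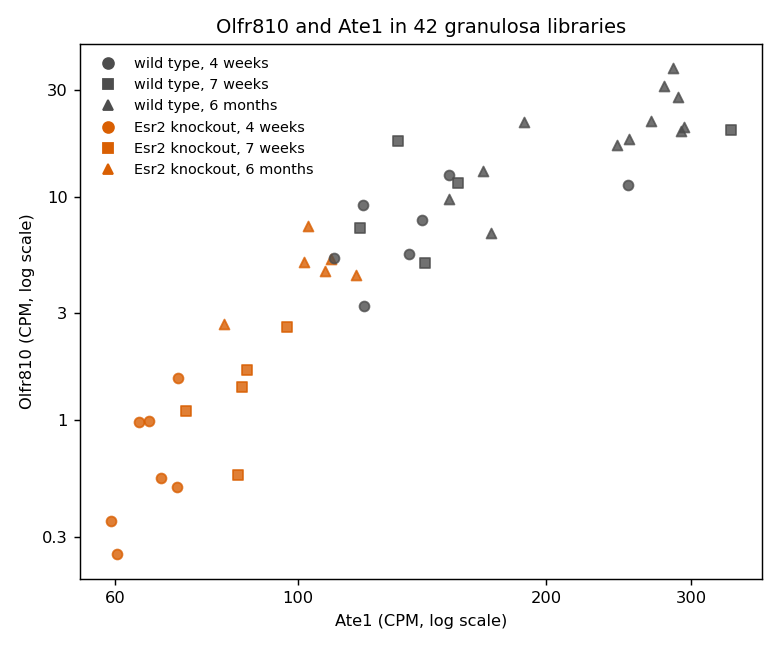
Olfr810 (vertical axis) against Ate1 (horizontal axis), both in CPM on log scales, in 42 granulosa libraries; colour is genotype and shape is age. The 4 and 7 week knockout libraries hold the lowest corner, with Ate1 from 59.3 to 96.9 CPM, and the 6 month wild type libraries lie toward the highest values of both genes.

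Among the 5 genes higher in the knockout, r ran from 0.51 to 0.77 over their 10 pairs. After group means were removed it ran from -0.50 to 0.24, with both signs present. The 3 genes most like Pak3 were Masp1, Cst12 and Nid2 (0.81, 0.81 and 0.80). For Dtna they were Grb14, Lgr6 and Cers4 (0.86, 0.85 and 0.83), and for Serpinb1a Grb14, Nid2 and Anxa1 (0.83, 0.81 and 0.80). Anxa1 encodes the phospholipid-binding protein annexin A1, and its r with Serpinb1a was 0.89 after group means were removed. For the other genes listed here as nearest, that value ran from 0.07 to 0.58. For Smoc1 they were Ank3, Kcnma1 and Fam78b (0.86, 0.86 and 0.84), and for Pmm1 Bok, Clu and Grb14 (0.85, 0.82 and 0.82). Grb14, an adaptor that binds the insulin receptor, thus stood among the 3 nearest of Dtna, Serpinb1a and Pmm1. After group means were removed, its r with them was 0.24, 0.58 and 0.07. Grb14 was itself past the threshold in granulosa cells at 3 ages, so nothing is read from its place.

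Oocyte libraries took no part in the choice of the genes, so there the knockout can be tested. None of the genes passed the test there. Of the 8, Pak3 and Smoc1 have no row in any oocyte table, and Olfr810 has one only at 6 months. The smallest sum of a row in these tables is 5.43 to 6.41 counts, so a missing row may stand for few or no reads. Olfr810 was too low to test there, with 0 to 4.07 CPM in wild type libraries and 0.716, 0, 0.337 and 0 CPM in the 4 knockout libraries. Dtna, Pmm1 and Ate1 were tested at each age, Zfat at 4 weeks and 6 months, and Serpinb1a at 7 weeks and 6 months.

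Dtna held 2.59, 10.8 and 16.1 CPM (lowest, median, highest) in 4 week wild type and 3.01, 10.9 and 15.3 CPM in knockout oocytes. At 7 weeks the 5 wild type libraries held 11.4, 4.26, 12.0, 25.1 and 11.3 CPM, and knockout libraries 4.62, 9.23 and 15.5 CPM. At 6 months wild type libraries held 5.89, 12.7 and 24.3 CPM, and the 4 knockout libraries 14.9, 8.00, 15.8 and 8.74 CPM. The ranges overlap at every age, and the oocyte group means, 9.65 to 13.9 CPM, lie between the 4 week granulosa means of wild type and knockout. Its log2 fold changes were 0.04 ± 0.34, -0.30 ± 0.32 and -0.17 ± 0.33 (SE). The highest upper bound of their 95% intervals was 0.70, at 4 weeks, below the granulosa value of 2.76. The granulosa values set beside oocyte intervals, here and below, have errors of their own. They also come from the libraries that chose the genes, and no difference between the cell types was tested.

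Pmm1 held 17.2, 31.0 and 37.0 CPM in 4 week wild type and 10.0, 24.5 and 31.2 CPM in knockout oocytes. At 7 weeks wild type libraries held 7.90, 20.9, 27.1, 44.3 and 22.3 CPM, and knockout libraries 11.0, 26.3 and 34.4 CPM. At 6 months wild type libraries held 12.9, 25.8 and 54.4 CPM, and the 4 knockout libraries 25.4, 22.1, 17.7 and 14.8 CPM. Its log2 fold changes were -0.33 ± 0.23, 0.13 ± 0.30 and -0.47 ± 0.31 (SE), so that 2 of 3 point away from the granulosa direction without passing the test. The 95% intervals, -0.78 to 0.11, -0.45 to 0.72 and -1.09 to 0.14, do not hold the granulosa values of 1.61, 0.87 and 1.10. The 7 week granulosa value had an SE of 0.27 and was itself outside the threshold.

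Ate1 held 16.2, 33.6 and 49.7 CPM in 4 week wild type and 20.9, 31.8 and 36.8 CPM in knockout oocytes. The 7 week wild type libraries held 56.6, 45.8, 49.3, 44.3 and 47.8 CPM, against 31.1, 37.5 and 48.8 CPM in knockout libraries. At 6 months wild type libraries held 22.002, 35.5 and 40.2 CPM, and the 4 knockout libraries 32.8, 31.9, 24.8 and 32.5 CPM. All 3 log2 fold changes were below 0, at -0.15 ± 0.20, -0.22 ± 0.16 and -0.06 ± 0.22 (SE). Their 95% intervals reach no lower than -0.54, against granulosa values of -1.21, -1.12 and -1.07.

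Serpinb1a and Zfat were sparse in oocytes, at 0 to 7.02 and 0 to 6.79 CPM over the 51 libraries. Serpinb1a had log2 fold changes of 0.21 ± 0.84 at 7 weeks and 0.10 ± 0.90 at 6 months. The intervals, -1.45 to 1.86 and -1.66 to 1.86, hold both 0 and the granulosa values of 1.29 and 1.42. A change of that size could thus not be told from none at these low levels. Zfat had -0.06 ± 0.60 at 4 weeks and -0.85 ± 0.81 at 6 months. The first interval, -1.24 to 1.12, does not hold the granulosa value of -2.30, and the second, -2.44 to 0.75, holds that of -1.12.

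In oocytes the edgeR quasi-likelihood test passed 0 of 4 tested members at 4 weeks (adjusted p = 0.998 for each), 0 of 4 at 7 weeks (lowest adjusted p = 0.466, for Ate1) and 0 of 5 at 6 months (0.999 for each). None had an unadjusted p under 0.05, and DESeq2 also passed 0. The background was as thin: 0.00924% of 10828 genes, 0.154% of 11711 and 0.00818% of 12225 passed. At 4 weeks and at 6 months this was 1 gene, Esr2 itself. At 7 weeks 18 genes passed without and 38 with a replicate block, and 0 of the tested members in both. Genotype ranges of CPM overlapped for each member with a row at each age, and were apart for 0.00924%, 0.162% and 0.0818% of genes tested. The first of these shares is again Esr2 alone.

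**Figure D3:**
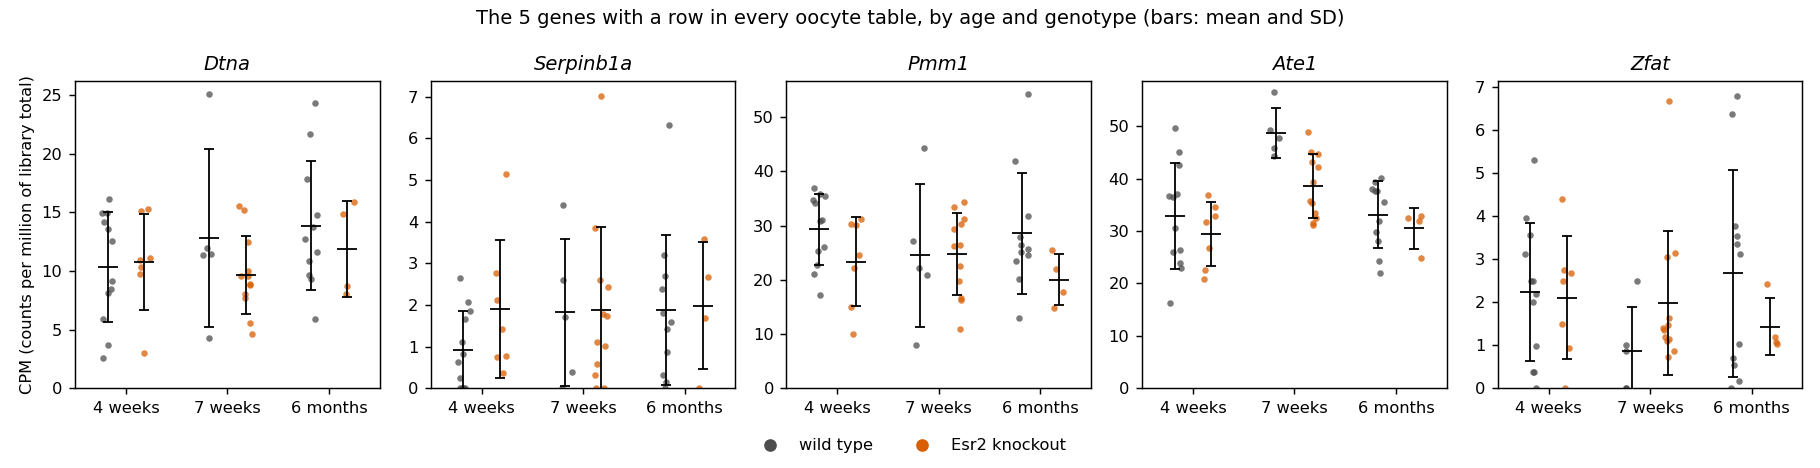
CPM (vertical axes, each from 0) of the 5 genes with a row in every oocyte table, by age (horizontal axes) and genotype; points are the 51 oocyte libraries and bars the mean and SD. Wild type and knockout points overlap in every panel and age, and Serpinb1a and Zfat stay at or below 7.02 and 6.79 CPM.

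**Figure D4:**
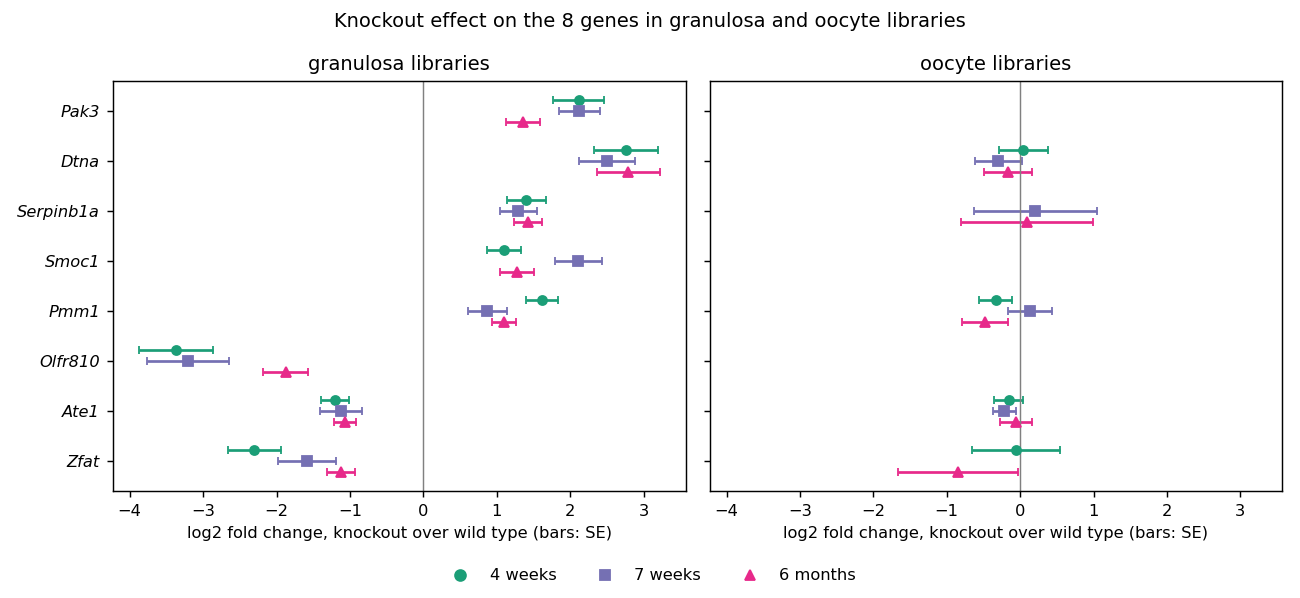
Log2 fold change, knockout over wild type, with its SE (horizontal axes) for the 8 genes (vertical axis) in granulosa and oocyte libraries; shape and colour are age, and genes or ages without a point could not be tested. Granulosa values lie between -3.37 and 2.79, on the side that chose each gene, and oocyte values between -0.85 and 0.21.

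Age was tested in wild type oocytes by joining the 3 oocyte tables, where 13471 genes and 5 of the 8 members could be tested. None of the members passed by the edgeR quasi-likelihood test, while 0.824% of genes passed between 4 and 7 weeks, 25.7% between 7 weeks and 6 months and 15.4% between 4 weeks and 6 months. Ate1 was 0.39 ± 0.17 (log2, SE) higher at 7 than at 4 weeks (adjusted p = 0.167), and Zfat 1.67 ± 0.79 higher at 6 months than at 7 weeks (adjusted p = 0.112). Both had an unadjusted p under 0.05 in the edgeR quasi-likelihood test, 0.0287 and 0.0391. Without the 7 week wild type replicate 5, the Zfat difference was 2.51 and passed by that test (adjusted p = 0.0383). The wild type granulosa order of Ate1 and Zfat by age was not seen in oocytes, where Ate1 means were 32.8, 48.8 and 33.2 CPM and Zfat means 2.23, 0.870 and 2.67 CPM. The knockout effect itself was compared between ages in the same fit: 0 of the 5 members and 0% of genes passed the edgeR quasi-likelihood test, and no member had an unadjusted p under 0.05. DESeq2 also passed 0 members in the age contrasts and in the comparisons of the knockout effect. Differences ran from -2.01 ± 1.12 for Zfat (6 months minus 7 weeks) to 1.23 ± 0.99 for Zfat (7 minus 4 weeks).

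Levels of some close relatives of these genes are given here by cell type. Each gene is compared here only with itself. Smoc1 has no row in oocytes, while Smoc2 held 114 to 521 CPM there and 5.99 to 112 CPM in granulosa libraries. Pak3 has no row in oocytes, while Pak1 held 19.8 to 136 CPM there and 0.288 to 17.6 CPM in granulosa libraries, and Pak2 held 2.48 to 17.6 and 43.5 to 175 CPM. Serpinb1a held at most 7.02 CPM in oocytes and at least 91.2 CPM in granulosa libraries, while Serpinb1c held 20.2 to 61.9 CPM in oocytes and has no row in granulosa tables. In the phosphomannomutase family Pmm1 was read in both cell types, whereas Pmm2 held 36.1 to 117 CPM in granulosa libraries and 0 to 5.57 CPM in oocytes. Dtnb, the other dystrobrevin, held 29.7 to 110.1 CPM in granulosa and 6.70 to 27.7 CPM in oocyte libraries. For Smoc2, Pak1, Pak2, Pmm2 and Dtnb, no oocyte library overlapped the range of granulosa libraries. The share of all genes apart in this way was not counted, so nothing is read from it. These ranges compare separate tables, and no test was run on them.

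The partners of each gene were followed through lists of its pathway, counted without the gene itself. Mannose phosphate and GDP-mannose genes, which make and use the sugar donor for protein glycosylation, rose at 6 months in knockout granulosa libraries for 7 of 18 members and fell for 0, where 6.59% of all genes rose. Among them were Gmppb, which makes GDP-mannose (0.88 ± 0.21, adjusted p = 0.0102), and Mpi, which makes mannose-6-phosphate (0.69 ± 0.17, adjusted p = 0.0107). Alg3, a mannosyltransferase of the lipid-linked sugar chain (0.93 ± 0.23, adjusted p = 0.0131), and Gmds, the entry to GDP-fucose (0.97 ± 0.27, adjusted p = 0.0234), rose too. Alg12, Pmm2 and Mpdu1 were the other three. The list's median log2 was 0.34, against -0.02 over all genes. It was -0.09 at 4 weeks and -0.45 at 7 weeks, with 0 of 18 past the edgeR quasi-likelihood test at either age. Pmm1 was the one gene of the list past the threshold at 4 weeks. Pmm2 had log2 values of -0.05 ± 0.24, -0.64 ± 0.24 and 0.54 ± 0.15 (SE) in order of age. This list and those below were chosen with earlier results known, and their genes were not followed under other settings. Over all genes, 1580 passed at 6 months, and 645 did with a replicate block (1062 without it on the same libraries).

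**Figure D5:**
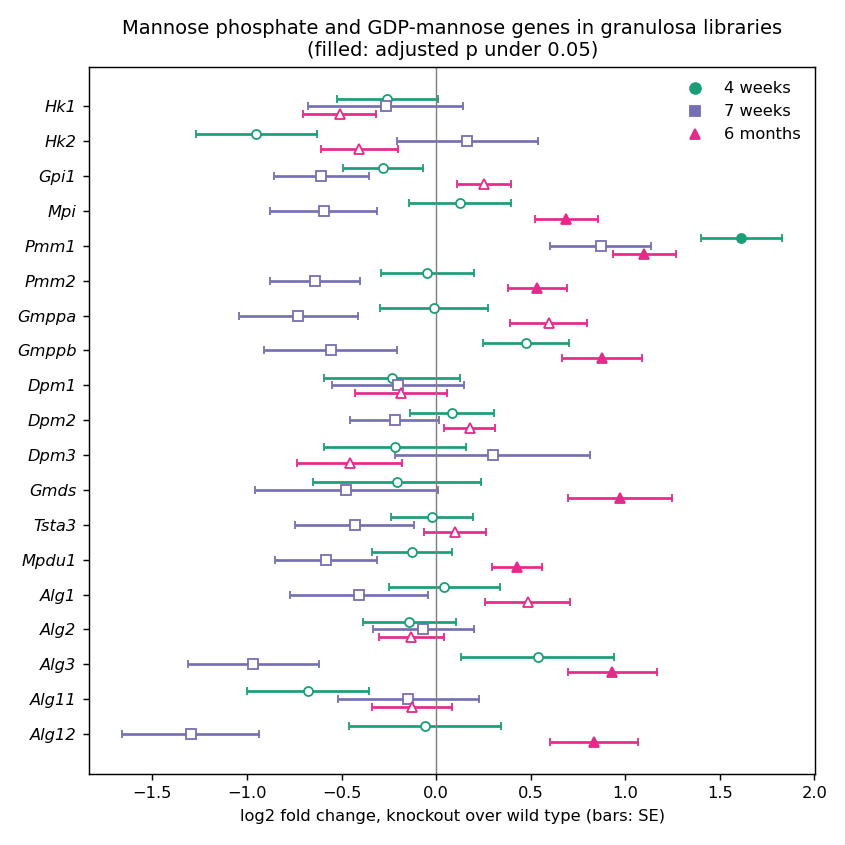
Log2 fold change, knockout over wild type, with its SE (horizontal axis) in granulosa libraries for the 19 tested genes of the mannose phosphate and GDP-mannose list, Pmm1 included (vertical axis); shape and colour are age, and filled points have an adjusted p under 0.05. Pmm1 is right of 0 at each age, while 7 other genes have a filled point at 6 months and most points of 7 weeks lie left of 0.

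In the SPARC family, secreted proteins that bind calcium and collagen, 3 of 5 members besides Smoc1 rose at 6 months, where 6.59% of all genes rose. They were Smoc2 (1.56 ± 0.25, adjusted p = 0.000278), Sparcl1 (1.44 ± 0.24, adjusted p = 0.000548) and Sparc (0.67 ± 0.17, adjusted p = 0.0126). Smoc2 had 1.29 ± 0.39 at 4 weeks and 0.93 ± 0.30 at 7 weeks without passing (adjusted p = 0.0889 and 0.143). None of the 5 passed at those ages. The 11 theca and stroma markers, whose cells also make matrix proteins, summed to 6.45 to 342 CPM in 6 month knockout libraries (median 74.4) and to 9.33 to 51.1 CPM in wild type libraries (median 20.04). Their part in the SPARC family values was not tested. Of 19 BMP signalling genes, Id3, a direct BMP target, rose at 4 weeks (1.14 ± 0.25, adjusted p = 0.0138), and none passed at 7 weeks. At 6 months Acvr1, Bmp6 and Smad4 fell (-1.10 ± 0.23, -0.89 ± 0.21 and -0.89 ± 0.28) and Gdf9, an oocyte ligand, rose (1.06 ± 0.32), which makes 4 of 19 where 12.6% of all genes passed. The oocyte markers, of which Gdf9 is one, summed to 14.8 to 37.7 CPM in those knockout granulosa libraries (median 19.96) and to 5.53 to 24.2 CPM in wild type (median 11.3), and their part in the Gdf9 value was not tested.

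Of 18 Pak3 partners tested at 6 months, 1 rose and 2 fell, and of 17 at 4 and at 7 weeks none passed. Pak6 rose by 1.72 ± 0.38 (log2, SE), and Pak2 and Rac1 fell by 0.51 ± 0.17 and 1.19 ± 0.26. Rac1, the GTPase that activates these kinases, had 0.88 ± 0.38 at 7 weeks without passing (adjusted p = 0.235). In the dystrophin complex, 3 of 10 genes besides Dtna passed at 6 months: Sgce, a sarcoglycan, rose (1.12 ± 0.19), and Dag1, the dystroglycan that anchors the complex to the matrix, and Sntb2, a syntrophin, fell (-0.64 ± 0.19 and -0.79 ± 0.26). None of 10 passed at 4 or 7 weeks. Among clade B serpins and their proteases, Serpinb2 fell at 4 weeks (-3.22 ± 0.74, adjusted p = 0.0167) and Serpinb6b rose at 6 months (0.73 ± 0.17), 1 of 5 and 1 of 6 genes. In the arginylation and N-degron list, 3 of 12 genes passed at 6 months. Cdo1, a dioxygenase of free cysteine and not of protein ends, rose (2.46 ± 0.56). The ubiquitin ligases Ubr2 and Ubr4 fell (-0.53 ± 0.17 and -0.65 ± 0.14). At 6 months 12.6% of all genes passed, so 3 of 18 genes is near the background. Of the olfactory signal list, Reep1 alone passed, falling at 6 months (-0.90 ± 0.23). In oocytes no gene of these lists passed at any age.

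Smoc1 is the only one of the 8 near the targeted gene. Of the genes within 5 Mb of Esr2, 55, 58 and 60 were tested in granulosa libraries at the 3 ages. Smoc1 was the only one past the test at 4 and at 7 weeks, where 2.33% and 0.8% of all genes passed. At 6 months 6 of the 59 others passed, near the share of 12.6% over all genes: Arg2, Hspa2, Plekhd1 and Zfp36l1 rose and Plekhg3 and Ppm1a fell. In oocytes 0 of 50, 52 and 54 passed.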

How the data were processed

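RNA of 42 granulosa and 51 oocyte samples was read by Smart-seq2. The submitters' processing notes name STAR, Partek, DESeq2 and mm10, without versions; the annotation is not given in the sources used here. The deposited tables hold expected counts, which the authors did not normalise; they were rounded before testing. Deposited normalised signal values, in which the authors divided counts by a size factor, were not used. Samples were grouped by title. Among the 7 week knockout oocytes, 1 column matched no single sample, and 1 sample had no column of its own. The column was kept in its group.

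Knockout was compared with wild type per cell type and age with edgeR 4.0.16 (R 4.3.3): filterByExpr, TMM and the quasi-likelihood F test with robust dispersion, adjusted over all genes tested (Benjamini-Hochberg) with a threshold of 0.05. The 3 oocyte tables were joined for age contrasts. The SE was worked back from the log2 fold change and the F statistic. Intervals are 95%, set around the fold change with that SE and the normal distribution. They are approximate and may be too narrow. The fits were tested on simulated counts. Alternatives were RLE scaling, no low-count filter, DESeq2 1.42.0, a replicate block, and leaving out libraries. Sample numbers were checked for pairing by the correlation of residuals. In 7 week oocytes all 4 shared numbers gave 0.12 to 0.54, and 2 of the 4 correlated best with their own number. These may be pairs, but the values reported for 7 week oocytes come from the fit without the block unless the block is named. In the other comparisons the numbers did not pair. Transcripts were aligned on the same strand with BLAST+ 2.17.0 on GENCODE annotation.

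The 8 genes and the lists were chosen with earlier results of these data known. Named besides the 8 were Esr2, up to 4 genes past the test per list, taken by smallest p (others in this text were named after their values were seen), genes near Esr2 past it, and the 3 genes with the highest r for each of the 8. Some cell type marker sums are not reported here.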

Additional observations from a re-analysis of the deposited data

Results flagged for a closer look

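A library stood far from the others of its group in 5 of 56 combinations of gene and group that could be checked, where chance flags about 1 in 20. Wild type granulosa replicate 3 at 4 weeks held 251.8 CPM of Ate1 where the next library held 152, and the log2 fold change without it was -1.05 ± 0.16 (SE) against -1.21. Wild type granulosa replicate 1 at 7 weeks held 335.8 CPM of Ate1 where the next held 157. Wild type granulosa replicate 1 at 4 weeks held 51.7 CPM of Pak3, from 151 reads, where the next held 20.4. That library also had the lowest granulosa marker sum, 1502 CPM, and an immune marker sum of 1518 CPM. In 6 month knockout oocytes replicate 3 was low for Ate1, with 24.8 CPM where the next held 31.9, and replicate 4 was high for Zfat, with 2.43 CPM from 10 reads where the next held 1.18.

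At 6 months every knockout granulosa library was above the wild type median of Pmm1 and every knockout oocyte library below it. The log2 fold changes were 1.10 and -0.47. The difference between the cell types was not tested.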

How the results depend on the processing

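In granulosa libraries 432 of 432 alternative fold changes of the 8 genes kept their direction and stayed within the spread of replicates. Nothing is read from this, since these libraries chose the genes. A shift such as that of Ate1 at 7 weeks, from -1.12 to -0.79, counts as within that spread. Counts over all genes moved more: DESeq2 passed 559 genes at 4 weeks and 563 at 7 weeks (edgeR 283 and 96), and a replicate block passed 645 at 6 months (1580 without; 1062 without it on the same libraries). In 7 week oocytes 30 genes passed with no low-count filter, 238 by DESeq2 and 38 with the block (18 in the comparison as reported; 1 without the block on the same libraries). The causes were not tested. Elsewhere the block changed no count by over 1.5 times; in the comparisons that did not pair, at most 1 pair of numbers correlated best with its own.

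Leaving out 1 library at a time gave 213 to 303 genes at 4 weeks, 36 to 209 at 7 weeks and 926 to 2057 at 6 months in granulosa, with 8, 3 to 5 and 8 of the 8 genes past the threshold. At 7 weeks the count was 36, 38 and 41 when wild type 4, 3 or 2 was left out, 43, 45 and 51 when knockout 5, 3 or 1 was, and 209 when knockout 4 was. At 6 months it was 982, 926 and 998 without knockout 2, 5 and 3. In 7 week oocytes it was 2 to 296 genes: it was 2 and 61 when wild type 2 or 3 was left out, 28 and 296 when knockout 2 or 1 was, and 5 to 9 for most others. For the 8 genes in oocytes it was 0 throughout, except 1 (Zfat) between 7 weeks and 6 months in wild type without the 7 week wild type replicate 5.

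Of 269 alternative oocyte fold changes, 25 reversed, and of 360 age contrasts 12 did. With the replicate block Ate1 was 0.029 at 4 weeks and 0.24 at 6 months, and Serpinb1a -0.77 at 6 months. Leaving out libraries gave, in 4 week oocytes, -0.049 to 0.21 for Dtna and -0.36 to 0.16 for Zfat; at 7 weeks, -0.25 to 0.74 for Serpinb1a, -0.10 to 0.45 for Pmm1 and -0.54 to 0.10 for Dtna; and at 6 months, -0.11 to 0.030 for Ate1 and -0.34 to 0.53 for Serpinb1a. Between wild type ages it gave -0.32 to 0.33 for Dtna (7 weeks against 4), -0.033 to 0.83 for Serpinb1a (6 months against 7 weeks) and -0.028 to 0.032 for Pmm1 (6 months against 4 weeks). For the knockout effect it gave -0.088 to 0.0061 for Ate1 and -0.55 to 0.10 for Dtna (7 weeks against 4), and -0.62 to 0.35 for Serpinb1a and -0.28 to 0.37 for Dtna (6 months against 7 weeks). Few reads per library limit what can be said of Olfr810, Serpinb1a and Zfat in oocytes.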
